A study of Mus musculus with 16 samples.

Results

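The neuronal intermediate filament genes are a set of 5, taken by gene symbol from the 53465 genes of the count table: Nefl, Nefm and Nefh, which encode the light, medium and heavy neurofilament subunits, Prph, which encodes peripherin, and Ina, which encodes alpha-internexin. All 5 held enough reads to be tested in every comparison. They were measured in 16 libraries of ribosome footprints and of poly(A)+ mRNA, from dorsal root ganglia (DRG, which hold the cell bodies of sensory neurons) and from the dorsal part of the lumbar spinal cord of C57BL/6J female mice, 8 weeks old at surgery. The mice had spared nerve injury (SNI), in which branches of the sciatic nerve are cut on both sides and the sural branch is left intact, or sham surgery, in which the nerve was exposed and not cut, and tissue was taken at day 30. Each of the 8 groups, given by tissue, surgery and assay, had 2 replicates, labelled as independent pools of tissue from 10 mice, and 1 lysate of each pool was divided to make its footprint library and its mRNA library. With n = 2 pools in every group, an SD here covers the spread between pools and not between mice. Sham and SNI mice carried no transgene and no other treatment in the labels.

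Neurofilaments are the most abundant cytoskeletal polymers of large myelinated axons. Nefl forms the core of the filament, Nefm and Nefh join it and carry long tails that project from it as side arms, and the tails are heavily phosphorylated in the axon on repeats of lysine, serine and proline. The number of filaments is a main determinant of axon diameter, and so of conduction velocity. Alpha-internexin is a partner of the neurofilament subunits mainly in the central nervous system, and peripherin is a partner mainly in the peripheral nervous system, where it is known as a marker of small-diameter sensory neurons. After axotomy, sensory neurons are known for lower expression of the neurofilament genes.

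The genes lie on 4 chromosomes (GRCm38). Nefl is at chr14:68083863-68089095 on the plus strand and Nefm next to it at chr14:68082590-68124846 on the minus strand. Nefh is at chr11:4938754-4948064 on the minus strand, Prph at chr15:99055174-99058978 on the plus strand and Ina at chr19:47014698-47025327 on the plus strand. The longest coding transcripts have 4, 3, 4, 8 and 3 exons, in the order Nefl, Nefm, Nefh, Prph and Ina, and 1629, 2544, 3270, 1521 and 1503 coding bases. The exons of Nefl and Nefm share 1108 bases on opposite strands, from 68083863 to 68084970, which is 32.8% of the exonic bases of Nefl and holds 1008 of its coding bases. Ina shares 14.1% of its exonic bases, 399 of its coding bases among them, with Nt5c2 on the other strand. The study's methods call the sequencing not strand-specific, and whether reads were counted by strand is not given in the sources used here. Of 38 coding genes with at least 99% of their exonic bases under exons of the other strand, 3 held enough mRNA reads over all libraries to be tested, of 108 coding genes shared to the same extent on their own strand 0 did, and of coding genes with no shared exon 60.8% did. The part of shared bases in the counts of Nefl, Nefm and Ina was not tested.

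The place where ribosomes start on each mRNA is shown by 30 bases around the annotated start codon, 12 of them before it, from GENCODE transcripts on GRCm38, with the start codon in capitals.
Nefl: ccggccgccaccATGagttcgttcggctac
Nefm: aaggcctccaagATGagctacacgctggac
Nefh: cctgctccggccATGatgagcttcggcagc
Prph: gccaagcgctgaATGccatcttccgccagc
Ina: gaccccggcaccATGagcttcggatcggag
A purine stood 3 bases before the start codon in 4 of the 5, the exception being Prph, and in 83.8% of 19676 coding genes.

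The tail of Nefh is the part of the set with repeated sequence. Codons for lysine, serine and proline in a row, in frame, occurred 51 times in Nefh, 4 times in Nefm and 0 times in Nefl, Prph and Ina. Of 21089 coding genes, 10.9% held such a triplet at all. In Nefh, all 51 lay between coding bases 1564 and 2667. The most frequent repeated units of 18 and of 24 bases in Nefh are shown with the lysine, serine and proline codons in capitals, and occurred 9 and 8 times.
Nefh unit of 18 bases: aggccAAATCTCCAgctg
Nefh unit of 24 bases: cAAGTCCCCAggtgaggccaagtc
A footprint from such a unit can match several places of the gene. Of the 28-base words of the Nefh coding sequence, 12.1% occurred more than once in the gene, a share higher than in 98.9% of coding genes, whereas Nefl, Nefm, Prph and Ina had none. The study describes its filtered reads as those with a unique place in the genome, so the counts of Nefh may lack reads from these words, and its level is uncertain to this extent. A change between groups of 1 gene is measured over the same sequence.

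The reads counted in genes ranged from 6898056 to 28553113 per library. No pair of replicates agreed within sampling noise, but the excess over it differed widely between groups. In DRG mRNA the mean chi-square per gene between pools was 1.056 in sham and 1.068 in SNI, close to sampling noise alone. It was at least 2.641 in DRG footprints and between 1.206 and 1.758 in the cord groups. The cause of the narrow spread between DRG mRNA pools was not tested. The tissues matched their labels, with a summed level of 12 small-diameter sensory neuron markers of 4599 to 4888 CPM (reads of a gene scaled to a common library total) in DRG mRNA and of 196 to 212 CPM in cord mRNA. The summed level of 8 oligodendrocyte markers was 9742 to 10200 CPM in cord mRNA. The 5 genes together took 1.27% of the mRNA reads in both sham DRG pools, and 1.91% and 1.89% of the footprint reads. In the SNI pools they took 1.06% and 1.07% of mRNA reads and 1.58% and 1.56% of footprint reads. In the spinal cord their share lay between 0.443% and 0.476% of mRNA reads and between 0.691% and 0.738% of footprint reads over all 8 libraries. The share was thus lower in both SNI pools than in both sham pools of the DRG, in each assay.

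Neurofilament mRNAs were among the most abundant in the DRG. In this paragraph, levels are CPM, scaled between libraries by the trimmed mean of M values (TMM), per kilobase of exonic length for mRNA and of coding length for footprints, so that genes can be compared. In sham DRG mRNA, Nefl had a level of 1575 ± 8.39, Prph of 1150 ± 2.75, Nefm of 616 ± 3.51, Nefh of 498 ± 1.53 and Ina of 18.6 ± 0.155 (SD, n = 2). In both pools, Nefl ranked 15th and Prph 26th of 16716 genes by this level. No neighbours in this order overlapped between pools. The exons of all Nefm transcripts together cover 5782 bases and its longest coding transcript 3334, and with the latter length its level was 1068, still between Prph and Nefh. In sham DRG footprints, Nefl led with 5127 ± 116, followed by Nefm with 2227 ± 1.57, Prph with 1368 ± 21.4, Nefh with 1015 ± 9.96 and Ina with 28.1 ± 0.275. Nefl ranked 5th of 13449 genes there in both pools, and over exonic length Nefm, at 980, fell behind Prph, at 1116. In the spinal cord, Nefl also led, with 587 ± 6.56 in sham mRNA and 1785 ± 16.3 in sham footprints. Nefm came next, with 249 ± 7.82 and 997 ± 6.50. Nefh and Ina were next to each other, at 164 ± 6.79 and 152 ± 2.17 in mRNA and at 383 ± 3.50 and 357 ± 4.01 in footprints, and their pools did not overlap in either assay. Prph was last in the cord, with 17.5 ± 0.827 in mRNA and 29.4 ± 1.94 in footprints.

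**Figure D1:**
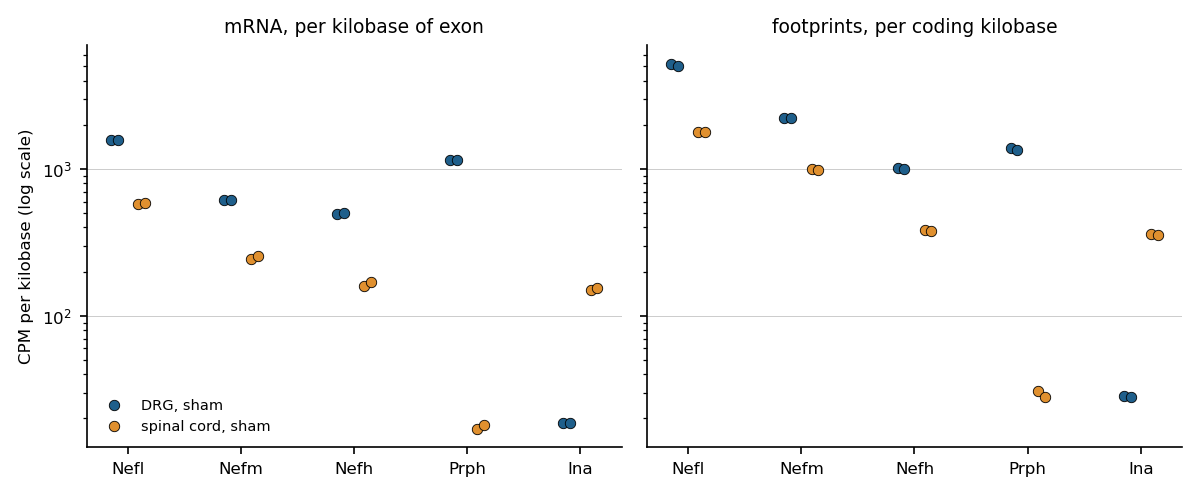
Level of each gene (CPM per kilobase) in sham DRG (blue) and sham spinal cord (orange), with mRNA on the left and footprints on the right, on a log axis, 1 point per pool. Nefl is highest in every column, Prph falls from 1150 in DRG to 17.5 in cord mRNA, and Ina goes the other way, from 18.6 to 152.

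Both tissues were compared in sham pools, which shows where each subunit is expressed. Values from here on are CPM normalised by TMM without length, which compare 1 gene between libraries. Prph mRNA was at 2149 and 2142 CPM in the DRG pools and at 31.5 and 33.7 CPM in the cord pools, 65.9-fold higher in DRG (log2 fold change 6.04, SE 0.031, adjusted p = 6.0e-66 by edgeR's quasi-likelihood test). Ina, the central partner, was the only one lower in DRG, at 60.7 and 60.0 CPM against 489 and 499 CPM in the cord, 8.18-fold lower (log2 fold change -3.03, SE 0.029, adjusted p = 3.2e-55). The 3 neurofilament subunits were higher in DRG by log2 fold changes of 1.42 for Nefl, 1.30 for Nefm and 1.60 for Nefh. Thus 4 of the 5 genes were higher in DRG mRNA, where 39.9% of 16716 genes were, and 1 was lower, where 41.2% of genes were. In footprints the same 4 were higher, against 37.8% of 14194 genes, and Ina was lower, against 39.2%. The footprint differences were 1.52 for Nefl, 1.16 for Nefm, 1.41 for Nefh, 5.55 for Prph and -3.67 for Ina on the log2 scale. Bulk tissue was measured, so here and below more cells of a type and more RNA per cell cannot be told apart.

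SNI was then compared with sham in the DRG, the tissue of the injured neurons. The mRNA of all 3 neurofilament subunits and of Ina fell, and that of Prph rose slightly. Nefl, the core subunit, had 5343 and 5303 CPM in the sham pools and 4337 and 4397 CPM in the SNI pools. Its log2 fold change was -0.29 (SE 0.0069, adjusted p = 4.4e-57), a decrease to 0.82 of the sham level. Nefm, a side-arm subunit, had the largest change of the set, from 3575 and 3546 CPM to 2469 and 2488 CPM. Its log2 fold change was -0.52 (SE 0.0078, adjusted p = 2.6e-74), and among all 14494 genes 1.08% had a lower one. Nefh, the other side-arm subunit, went from 1985 and 1993 CPM to 1580 and 1585 CPM, with a log2 fold change of -0.33 (SE 0.0091, adjusted p = 2.4e-52). In each of these 3 genes both SNI pools lay below both sham pools, and the pools of a group differed by far less than the groups. The SD of log2 CPM between pools was 0.011 for Nefl, above the SE of its fit. It was 0.0079 for Nefm and 0.0039 for Nefh. No member changed by more than 1.5-fold in either direction.

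Prph, the peripheral partner, went the other way in mRNA, with 2149 and 2142 CPM in sham and 2264 and 2243 CPM in SNI. The log2 fold change was 0.07 (SE 0.0085, adjusted p = 2.6e-11), a rise to 1.05 of the sham level. The pools did not overlap. Ina had 60.7 and 60.0 CPM in sham and 52.5 and 52.8 CPM in SNI, a log2 fold change of -0.20 (SE 0.042, adjusted p = 6.1e-05). Over the set, 4 of 5 genes were lower, against 17.7% of the 14494 genes tested, and 1 was higher, against 16.4%. The test calls more genes at higher depth, and among the 4246 genes with at least the 4903 mRNA reads of Ina, 34.7% were lower and 21.8% higher.

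**Figure D2:**
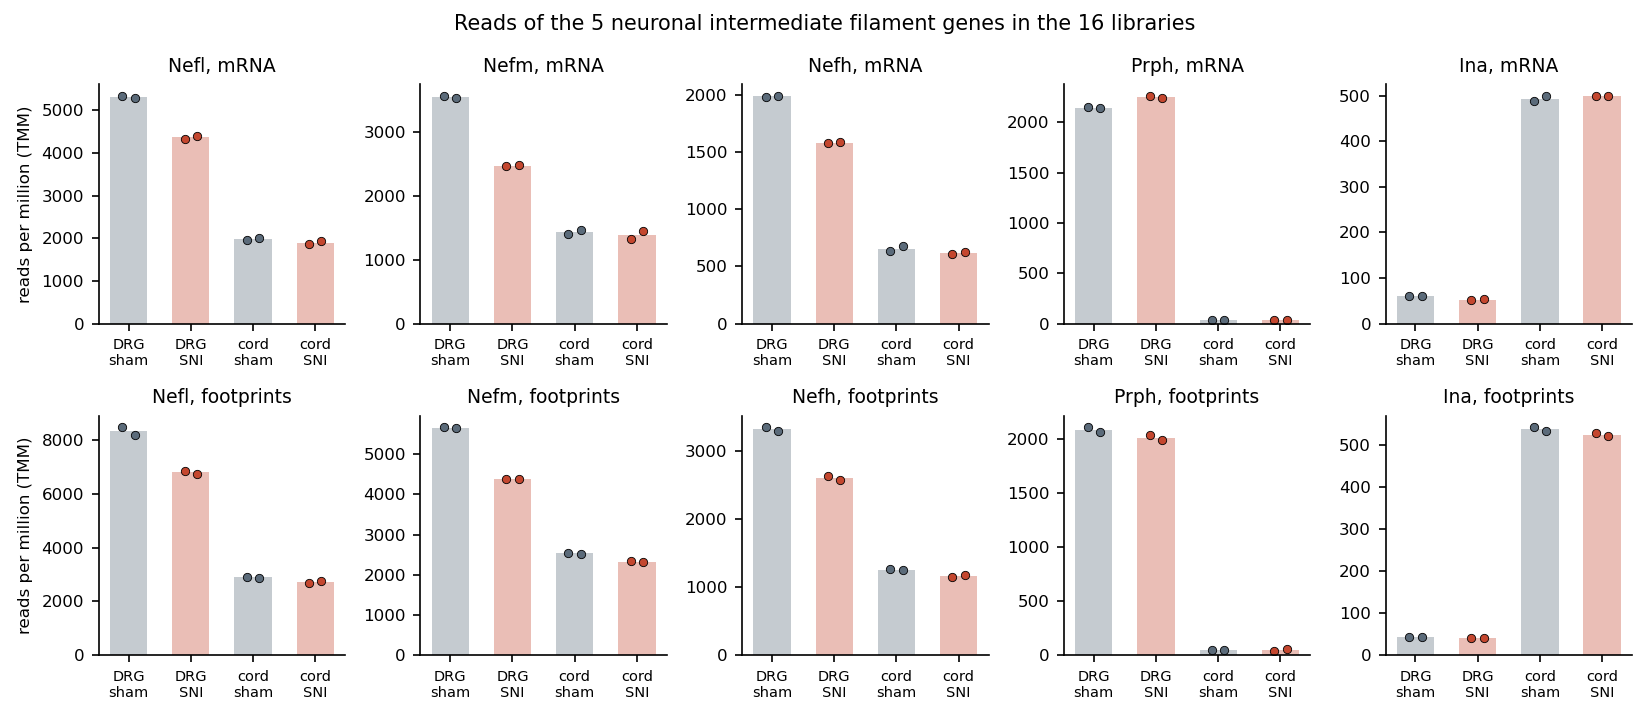
CPM normalised by TMM for each gene (columns) in mRNA (top) and footprints (bottom), by tissue and surgery, with bars at the mean of 2 pools and points for the pools. In DRG mRNA the SNI points of Nefl, Nefm and Nefh lie below the sham points, at 4337 to 4397, 2469 to 2488 and 1580 to 1585, and the cord bars of sham and SNI are nearly level.

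Because Ina is mainly a gene of the central nervous system, its fall in the DRG was set beside markers of oligodendrocytes, which belong to the cord. Of 8 such markers 5 were tested in DRG mRNA, and 4 were lower, among them Mog, Mobp and Olig1, and 1 was higher, Cnp, which is also a gene of Schwann cells. Of the 8, Mog, Mobp, Opalin, Olig1, Olig2 and Hapln2 are not known as Schwann cell genes. These 6 had between 0.783 and 21.3 CPM in sham DRG and between 0.201 and 3.02 CPM in SNI DRG, and none was at 0. The summed level of the 8 markers was 675 to 678 CPM in sham and 499 to 505 CPM in SNI pools. The decrease of these 6 markers equalled 0.600% to 1.25% of their level in sham cord. The decrease of Ina, 7.67 CPM, equalled 1.55% of its cord level, and the decreases of Nefl, Nefm and Nefh equalled 48.2%, 75.0% and 61.95% of theirs. In footprints, the decrease of Ina, 1.65 CPM, equalled 0.308% of its cord level, and those of the 6 markers equalled 0.0778% to 0.582%. The part of cord tissue in the decreases of the members was not tested. Skeletal muscle markers moved too, with 7 of 7 tested higher and a summed level of 48.4 to 50.5 CPM in sham and of 128.4 to 131.0 CPM in SNI DRG mRNA, and their part was not tested.

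Since the counts of a library are shares of its total, ratios between members were also taken within each library, which do not depend on the scaling between libraries. In DRG mRNA, the reads of Nefm were 0.669 ± 0.00025 of those of Nefl in sham and 0.568 ± 0.0025 in SNI (SD, n = 2). The ratio of Nefh to Nefl was 0.374 ± 0.0031 and 0.362 ± 0.0027, and that of Prph to Nefl was 0.403 ± 0.0012 and 0.516 ± 0.0083. Relative to Nefl, Nefm was therefore lower and Prph higher in both SNI pools, while Nefh moved little. In footprints, the ratio of Nefm to Nefl was 0.678 ± 0.015 and 0.645 ± 0.0089, and that of Prph to Nefl 0.249 ± 0.0018 and 0.295 ± 0.00060. With 2 pools against 2, an exact permutation test cannot give a p below 0.33, so these ratios were not tested.

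Footprints, the measure of how many ribosomes were on the mRNA, were also lower for the neurofilament subunits after SNI. In DRG footprints, Nefl had 8487 and 8218 CPM in sham and 6873 and 6739 CPM in SNI (log2 fold change -0.29, adjusted p = 1.2e-83). Nefm had 5668 and 5662 CPM in sham and 4391 CPM in both SNI pools (log2 fold change -0.37, adjusted p = 3.2e-92). Nefh had 3342 and 3296 CPM in sham and 2625 and 2570 CPM in SNI (log2 fold change -0.35, adjusted p = 2.9e-67). The groups did not overlap in any of the 3 genes. The standard errors of the fit were 0.0050 for Nefl and 0.0086 for Nefh, smaller than the SD of log2 CPM between pools, which was 0.027 for Nefl and 0.018 for Nefh. When the spread of each gene was held at or above the trend over all genes, Nefl was not called (adjusted p = 0.084), and Nefm and Nefh were.

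Prph footprints were at 2104 and 2058 CPM in sham and 2031 and 1986 CPM in SNI, opposite in direction to its mRNA. The log2 fold change was -0.05 (SE 0.012, adjusted p = 5.8e-04), beside an SD between pools of 0.023 on the log2 scale. This call was lost in 7 of 14 alternatives, with adjusted p = 0.23 with DESeq2, 0.093 with library sizes alone and 0.41 without SNI replicate 2. Ina footprints were at 42.6 and 42.0 CPM in sham and 40.0 and 41.3 CPM in SNI, and this difference did not pass the test (log2 fold change -0.05, 95% interval -0.16 to 0.07, adjusted p = 0.68). Over the set 4 of 5 genes were lower in footprints, against 8.28% of 13038 genes, and 0 were higher, against 8.4%. At the depth of these genes many more were called. Among the 18 genes with at least as many DRG footprint reads as Nefh, 168341, 77.8% were lower, 14 genes of which 3 were the neurofilament subunits. Of these 18, Nefm, Nefh and Nefl had the lowest log2 fold changes, and the next was Map1a, a microtubule-associated protein, at -0.20.

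**Figure D3:**
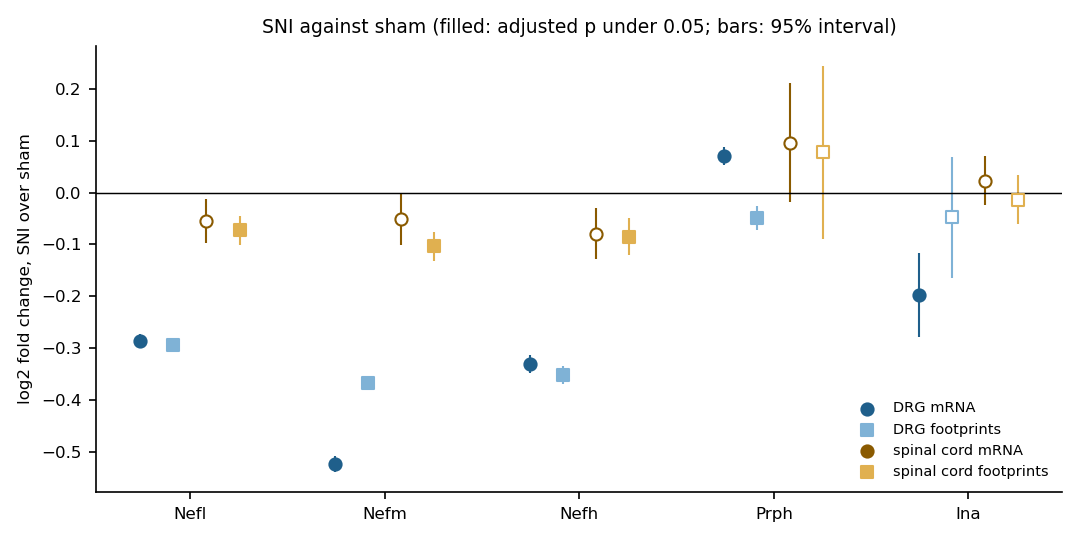
Log2 fold change, SNI over sham, of each gene in DRG (blue) and spinal cord (brown and yellow), with circles for mRNA, squares for footprints, 95% intervals as bars and filled symbols where the adjusted p was under 0.05. Nefl, Nefm and Nefh lie between -0.29 and -0.52 in DRG and between -0.05 and -0.10 in the cord, and the Nefm mRNA and footprint points in DRG are apart, at -0.52 and -0.37.

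Translational efficiency (TE) is the footprint level over the mRNA level of the same lysate, and the deposited TE of each member was within 0.0057% of the ratio of its shares of reads. In sham DRG, the TE of Nefl was 1.58 ± 0.024, of Nefm 1.60 ± 0.012, of Nefh 1.68 ± 0.018, of Prph 0.976 ± 0.011 and of Ina 0.705 ± 0.00071 (SD, n = 2). The median TE of 13966 genes was 0.868 in both pools. The neurofilament subunits were above 82.1% to 85.3% of genes, Prph above 56.8% to 58.2% and Ina above 37.5% to 37.6%. By this ratio the 3 subunits that form the neurofilament were next to each other and above both partners. The ratio does not allow for the coding part of each mRNA, 1629 of 3380 exonic bases in Nefl and 3270 of 3994 in Nefh. Per kilobase, footprint and mRNA levels in sham DRG were 5127 and 1575 for Nefl and 1015 and 498 for Nefh. They were 1368 and 1150 for Prph and 28.1 and 18.6 for Ina. The spacing of the genes, and the order of Prph and Ina, thus depend on length.

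After SNI the TE of Nefm rose in the DRG and that of Prph fell. Nefm had a TE of 1.59 and 1.61 in the sham lysates and of 1.78 and 1.77 in the SNI lysates, a log2 change of 0.16 (SE 0.019, adjusted p = 2.6e-14). Its footprints had fallen less than its mRNA. Prph had a TE of 0.984 and 0.969 in sham and of 0.897 and 0.886 in SNI, a log2 change of -0.12 (SE 0.021, adjusted p = 7.7e-07). DESeq2 kept Nefm and not Prph (adjusted p = 0.071), and limma, run on deposited TE values, called neither, with adjusted p = 0.42 for Nefm and 0.45 for Prph. Nefl and Nefh had log2 changes in TE of -0.01 and -0.02, with 95% intervals of -0.04 to 0.03 and -0.06 to 0.02, and Ina had 0.14, with an interval of -0.01 to 0.29, none of which passed. With 1 of 5 genes higher and 1 lower, the background of all 12710 genes was 4.4% higher and 3.22% lower. These shares are not matched for depth, and calls were also frequent on other neuronal lists described below. Of 9 filament linkers, 5 were higher in TE and 2 lower. Of 8 transport motors, 2 were higher and 2 lower, and of 12 pan-neuronal genes, 4 were higher and 1 lower.

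**Figure D4:**
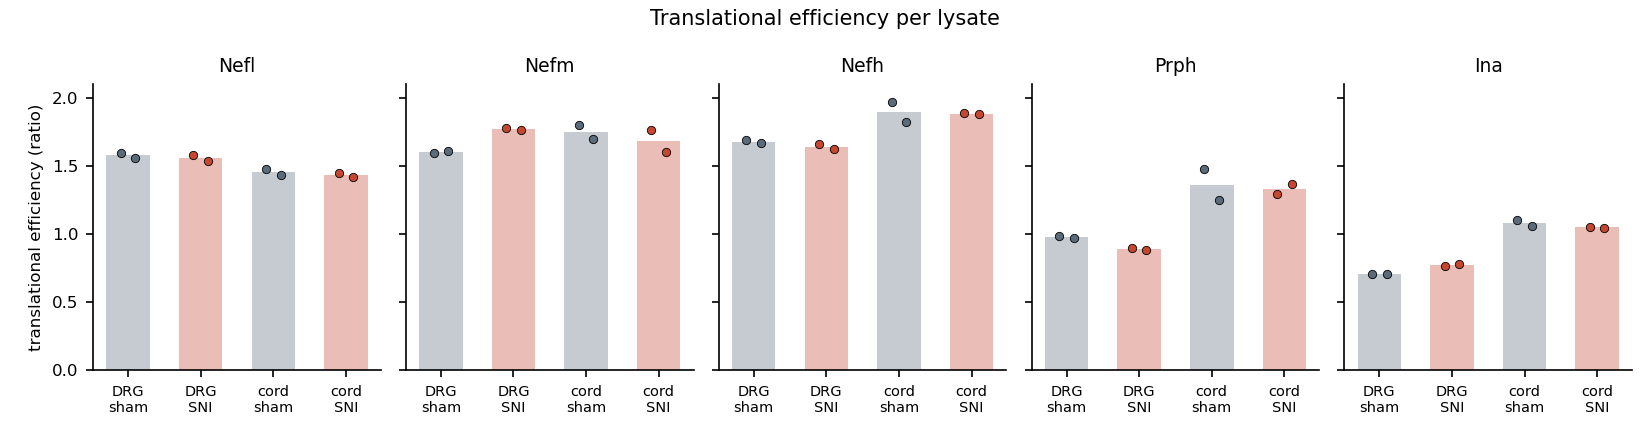
Deposited translational efficiency (footprint over mRNA RPKM) of each gene by tissue and surgery, with bars at the mean of 2 lysates and points for the lysates. Nefm is at 1.59 and 1.61 in sham DRG and at 1.78 and 1.77 in SNI DRG, and the Prph and Ina bars are lower in DRG than in cord.

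Between tissues, the TE of sham lysates differed for all 5 genes. Prph had a TE of 0.976 ± 0.011 in DRG and of 1.36 ± 0.16 in cord, and Ina of 0.705 ± 0.00071 in DRG and of 1.08 ± 0.031 in cord. The differences, DRG over cord, were -0.46 for Prph (SE 0.058) and -0.61 for Ina (SE 0.057) on the log2 scale, with adjusted p = 8.6e-11 and 4.5e-16. The TE of both partners was lower in DRG, that of Prph, with more mRNA in DRG, as well as that of Ina, with more mRNA in the cord. The neurofilament subunits differed less, by 0.12 for Nefl, -0.12 for Nefm and -0.17 for Nefh, and the call of Nefm was lost with DESeq2 (adjusted p = 0.084). In all, 4 of 5 were lower, against 21.5% of 13966 genes, and 1 was higher, against 18.5%, shares that are not matched for depth.

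In the spinal cord, where the central branches of the sensory axons end and local neurons were also sampled, the members changed little after SNI. Nefl mRNA was at 1967 and 1999 CPM in sham and at 1866 and 1937 CPM in SNI, a log2 fold change of -0.05 (adjusted p = 0.16). Nefm mRNA was at 1410 and 1474 CPM in sham and at 1321 and 1449 CPM in SNI, with overlapping pools and a log2 fold change of -0.05 (adjusted p = 0.28). Nefh mRNA was at 637 and 675 CPM in sham and at 608 and 628 CPM in SNI, a log2 fold change of -0.08 (adjusted p = 0.057). Prph and Ina had log2 fold changes of 0.10 and 0.02 (adjusted p = 0.41 and 0.69). By edgeR 0 of the 5 were called in cord mRNA, where 4.05% of 14723 genes were, and 0 by DESeq2. At an unadjusted p under 0.05 there were 3, the neurofilament subunits. Nefl and Nefh passed with no filter on low counts (adjusted p = 0.037 and 0.010) and with both tissues in 1 fit (0.046 and 0.014). Nefm passed without sham replicate 1 and without SNI replicate 2 (adjusted p = 0.021 and 0.036), and Nefh passed without sham replicate 1 (adjusted p = 3.3e-04).

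Cord footprints were lower for the 3 neurofilament subunits. Nefl went from 2926 and 2888 CPM to 2702 and 2751 CPM (log2 fold change -0.07, SE 0.014, adjusted p = 0.0031). Nefm went from 2548 and 2524 CPM to 2333 and 2323 CPM (log2 fold change -0.10, SE 0.014, adjusted p = 3.2e-05), and Nefh from 1260 and 1244 CPM to 1150 and 1180 CPM (log2 fold change -0.08, SE 0.018, adjusted p = 0.0083). Both SNI pools were below both sham pools in each gene. These 3 of 5 genes compare with 1.03% of 12018 genes lower, and with 31.2% among the 80 genes with at least the 39894 footprint reads of Nefh. Nefl and Nefh lost their calls without sham replicate 1 (adjusted p = 0.17 and 0.21) and without SNI replicate 1 (0.086 and 0.17), and with DESeq2 (0.76 and 0.89). Prph footprints, at 46.7 and 42.6 CPM in sham and 41.6 and 51.1 CPM in SNI, and Ina footprints, at 541 and 533 CPM in sham and 527 and 521 CPM in SNI, were not called. For TE in the cord, 0 members passed by edgeR, where 0.253% of 11865 genes did, 0 by DESeq2 and limma, and 0 had an unadjusted p under 0.05.

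Motor neuron markers were also counted in the cord. Of the motor neuron list, 4 of 9 genes tested were lower in cord mRNA, against 1.96% of all genes, and 4 of 7 in cord footprints, against 1.03%. None was higher in either assay. In mRNA, Chodl was at -1.08 and Slc5a7, the choline transporter, at -0.70, and Ret had a mean of 93.8 CPM in sham and 94.3 CPM in SNI. Chat, Slc5a7, Slc18a3 and Chodl were above 0 in every pool, and the summed level of the list was 267 to 276 CPM in sham and 233 to 234 CPM in SNI mRNA. Large motor neurons carry many neurofilaments, and the part of these cells in the cord values of Nefl, Nefm and Nefh was not tested. Schwann cell genes were lower too in cord mRNA, for 3 of 8 tested.

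The difference in response between the tissues was tested directly. In mRNA the response of DRG was below that of cord for Nefl, Nefm, Nefh and Ina, 4 of 5 genes, against 7.23% of 16716 genes. It was also below for 8 of 12 large-diameter neuron genes, 5 of 12 pan-neuronal genes and 4 of 8 transport motor genes. On these lists, described below, it was above for 0, 2 and 1. Of the members, Nefm differed most, by -0.46 on the log2 scale (SE 0.033, adjusted p = 9.8e-16). In footprints the DRG response was below for the 3 neurofilament subunits, against 3.15% of 14194 genes, with -0.20 for Nefl, -0.24 for Nefm and -0.25 for Nefh. The shares over all genes are not matched for depth. The footprint differences were not called when the spread of each gene was held at or above the trend over all genes (adjusted p = 0.57, 0.43 and 0.35). In TE, Nefm alone was called, with a DRG response higher by 0.21 (SE 0.038, adjusted p = 1.3e-04), where 0.644% of 13966 genes were higher, and this call was lost without spinal cord SNI replicate 2 (adjusted p = 0.058) and with DESeq2. Prph was called in none of the 3 tests.

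Genes of proteins that work with neurofilaments were counted in DRG mRNA, where 17.7% of all genes were lower and 16.4% higher, and 34.7% and 21.8% of those with at least 4903 reads. Among 9 linkers, which join filaments to microtubules and membranes, 5 fell and 2 rose. Map1b, a microtubule-associated protein of growing axons, fell by 0.22 on the log2 scale, Ank2, an ankyrin of the membrane skeleton, by 0.21 and Map2 by 0.13. Plec, which encodes the cross-linker plectin, rose by 0.16 (adjusted p = 8.2e-23). Among 8 transport motor genes, 6 fell and 1 rose, with the kinesin heavy chains Kif5b and Kif5a at -0.23 and -0.10, Myo5a at -0.14 and the dynactin subunit Dctn1 at 0.19. Every decrease called in both lists was smaller than that of Nefl. The list medians were -0.05 for the linkers and -0.08 for the motors, against -0.29 for the 5 members and 0.00028 over all genes tested.

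Of 15 kinases and phosphatases that act on neurofilaments, 6 fell and 3 rose in DRG mRNA, and of 9 genes of filament assembly and turnover, 3 fell and 0 rose. These shares are near that of all genes with at least 4903 reads, 34.7% lower. Rock1 fell most, by 0.34 (adjusted p = 3.2e-11), followed by Mapk10, a JNK kinase, by 0.18. Cdk5, a kinase of the lysine, serine and proline repeats, had a log2 fold change of 0.05, with adjusted p = 0.10. Among the assembly and turnover genes, Trim2, a ubiquitin ligase that binds Nefl, fell by 0.21, the chaperone Hspa8 by 0.22 and the phosphatase Mtmr2 by 0.10. Of 4 genes whose proteins have been described to bind Nefl mRNA, only Sod1 was called, lower by 0.17, and Tardbp was at -0.03 (adjusted p = 0.45). In footprints, the counts of genes lower were 4 of 9 linkers, 4 of 8 motors, 2 of 15 kinases and phosphatases, 1 of 9 assembly and turnover genes and 1 of 4 binding proteins. The counts higher were 3 linkers and 0 in the other lists. Over all 13038 genes, 8.28% were lower and 8.4% higher in footprints, shares that are not matched for depth.

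Of the intermediate filament genes of other cells, 10 were tested in the DRG. In mRNA 6 rose and 2 fell, against 16.4% and 17.7% of all genes, with a median of 0.21. In footprints 3 rose and 2 fell, against 8.4% and 8.28%, with a median of 0.05. In TE 0 rose and 2 fell, against 4.4% and 3.22%. In mRNA, Vim, the vimentin of glia and fibroblasts, rose by 0.35 (adjusted p = 3.3e-37), Krt19 by 1.27 and Des, the desmin of muscle, by 0.45. Gfap, the filament of astrocytes and activated satellite glia, fell by 0.97 (adjusted p = 6.2e-15), from 14.7 to 7.47 CPM, a decrease that equalled 0.803% of its cord level. That share lies within the range of the 6 oligodendrocyte markers, and the part of cord tissue was not tested.

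Markers of sensory neuron types were counted beside the members, again against 17.7% of all genes lower and 16.4% higher in DRG mRNA, and 34.7% and 21.8% of those with at least 4903 reads. Of 12 genes of large-diameter neurons, which are rich in neurofilaments, 10 fell and 0 rose in DRG mRNA, with a median of -0.23 on the log2 scale. Pvalb, the calcium buffer of proprioceptors, had a log2 fold change of -0.74, Runx3, their transcription factor, of -0.49, and the contactin-associated protein gene Cntnap2 of -0.36. Of 12 small-diameter neuron genes, 7 were lower and 4 higher, with a median of -0.07, from Mrgprd at -0.30 to Gfra3 at 0.52. Of 12 pan-neuronal genes, 5 were lower and 4 higher, with a median of -0.02, led by Gap43 at 0.54 and Snap25 at -0.54. All 8 injury-induced genes rose, in mRNA and in footprints, among them Atf3 at 2.88 and Npy at 4.02 in mRNA. Schwann cell genes, with 2 of 8 lower and 1 higher, and satellite glia genes, with 3 of 7 lower and 2 higher, had medians of 0.02 and -0.05. The part of the neuron types in the decrease of neurofilament mRNA was not tested.

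**Figure D5:**
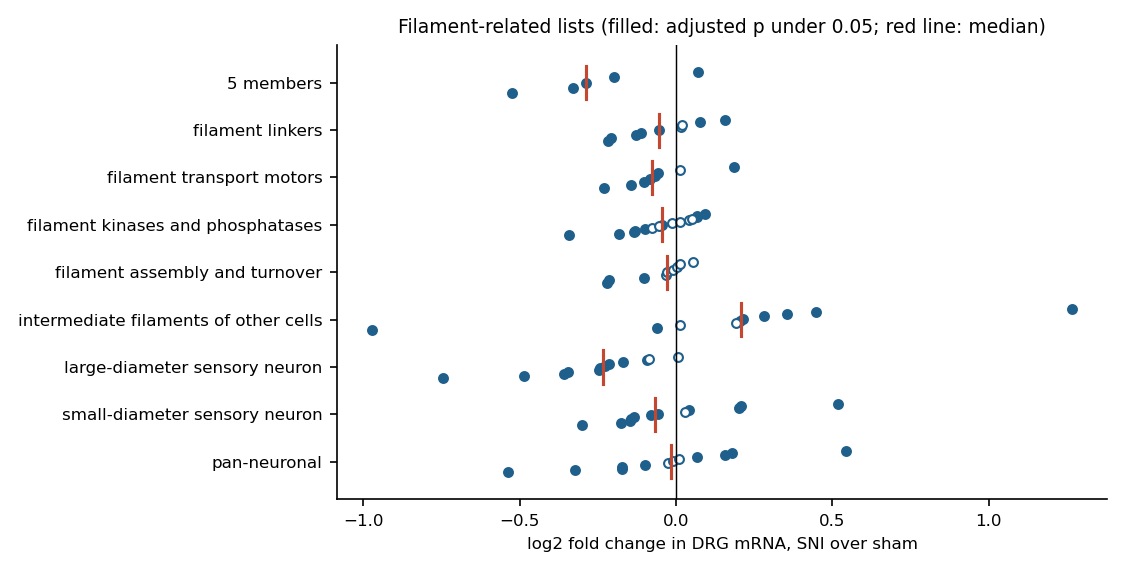
Log2 fold change in DRG mRNA, SNI over sham, of each gene tested on 9 lists, filled where the adjusted p was under 0.05, with a red line at the list median. The 5 members have a median of -0.29, the large-diameter markers of -0.23, and the other lists lie near 0 except the intermediate filaments of other cells, at 0.21.

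For each member, the genes whose centred log2 CPM profile over the 16 libraries was closest were found among 13966 genes. For Nefl these were Entpd3, Kank4 and Kctd8, at root mean square distances of 0.065 to 0.074. Nefh was the 5th closest to Nefl, at 0.080, and for Nefh the nearest were Rgs7bp, Nefl and Cpne4. Nefm was farther from both, at 0.17 from Nefl and 0.18 from Nefh, and closest to Fgf1 and Bcar3, at 0.092 and 0.095. Its ratio to Nefl also differed between tissues, with footprint ratios of 0.678 in sham DRG and 0.872 in sham cord. Prph was closest to Calca, which encodes the peptide CGRP of nociceptors, Tmem79 and Runx1, a transcription factor of nociceptors, at 0.16 to 0.20. Ina was closest to Caly, Kcnj10 and Specc1, at 0.076 to 0.082. The profiles cover both tissues and both surgeries, so the ranking also reflects the DRG to cord ratio.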

How the data were processed

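Ribosome footprints and poly(A)+ mRNA were measured in 16 libraries, grouped by the labels. The authors trimmed adapters, used Bowtie 1.1.2 to remove rRNA and tRNA, aligned to GRCm38.p5 with STAR 2.5.2b and made the deposited counts with HTSeq (no version given in the labels). The authors' RPKM values rest on lengths that differ from the genes' own (for Ina 109 against 3240 exonic bases), so levels were computed here with own lengths from GENCODE M21. The deposited TE is the authors' ratio of footprint to mRNA RPKM per lysate, in which the length cancels.

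The counts were tested with edgeR 4.0.16 in R 4.3.3 (quasi-likelihood test, TMM, Benjamini-Hochberg over all genes, call at adjusted p under 0.05), for genes with at least 128 reads over the libraries of an assay, the minimum in the study's methods. The change in TE was the surgery by assay interaction. Tissues were compared in 1 fit of all libraries of an assay, or of both assays for TE. The trended dispersion was held at or above 0.00011, because below that the deviances this version returned for counts as high as these were faulty, and the default is among the alternatives. Tests were tried on simulated data. Members and gene lists were chosen with earlier results of these data known, and the lists were written from general knowledge. Genes were named as the 5 members, per list at most 4 called in the mRNA of a tissue, taken by size of change, genes with a role named in the text, and the 3 nearest profiles per member (log2 CPM with 0.5 added). Genes with a given role outside this, and the other genes named in the Ina paragraph and among the deepest footprints, were chosen after their values were seen. Alternatives were DESeq2 1.42.0, limma 3.58.1 on the deposited TE, no filter, library sizes alone, 128 reads in every library, both tissues in 1 fit, a fixed coefficient of variation of 0.1, a replicate block and leaving out each pool. A quasi-dispersion of at least 1, quasi-Poisson variance and the default dispersion were added after seeing the data. With 2 pools per group, intervals cover these pools and counting error. Proteins were not used here. Some genes that the naming rule covers are not reported here.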

Additional observations from a re-analysis of the deposited data

Results flagged for a closer look

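The response to SNI differed between DRG and spinal cord for 4 of the 5 members in mRNA, by the test of the difference itself (edgeR, interaction of surgery and tissue), all 4 with the response of DRG below that of cord, against 7.23% of 16716 genes. That share is not matched for depth. By the same test, 8 of 12 large-diameter neuron genes, 5 of 12 pan-neuronal genes and 4 of 8 transport motor genes were also below, and 0, 2 and 1 were above. For the members, the differences, DRG minus cord on the log2 scale, were -0.22 for Nefl, -0.46 for Nefm, -0.24 for Nefh and -0.21 for Ina. In footprints they were -0.20 for Nefl, -0.24 for Nefm and -0.25 for Nefh, and none of these was called when the spread of each gene was held at or above the trend over all genes (adjusted p = 0.57, 0.43 and 0.35). In TE the difference was 0.21 for Nefm, a call lost with DESeq2 and without spinal cord SNI replicate 2 (adjusted p = 0.058). In Nefl, Nefm and Nefh, mRNA and footprints were lower in both SNI pools than in both sham pools of the DRG. What underlies these differences was not tested.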

How the results depend on the processing

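With 2 pools per group, depth let changes well under 1.5-fold pass, and the spread between pools is poorly known. Over the 12 comparisons, the number of members called kept within 1.5 times its value in 153 of 176 alternatives, fell in 18 and rose in 5, and no call reversed. With a fixed coefficient of variation of 0.1, a spread far above that between these pools, 1 member stayed called in DRG mRNA (Nefm) and 0 in DRG footprints, DRG TE, spinal cord footprints, the TE of the tissues and the 3 tests of the response between tissues. With a quasi-dispersion of at least 1, 2 members were called in DRG footprints, 1 in spinal cord footprints and 0 in the footprint response between tissues. DESeq2 called 1 member in DRG TE, 1 in spinal cord footprints and 0 in the TE response between tissues, and limma called 0 in DRG TE. In spinal cord mRNA, where none was called, 3 were called with a replicate block (Nefl, Nefm and Nefh, adjusted p = 0.0175, 0.034 and 0.0029), 2 with no filter and 2 with both tissues in 1 fit. Leaving out 1 pool at a time gave 5 in DRG mRNA, 3 to 4 in DRG footprints, 2 in DRG TE, 0 to 2 in spinal cord mRNA, 1 to 3 in spinal cord footprints, 0 in spinal cord TE, 5 in each comparison of sham tissues, and 4, 3 and 0 to 1 for the response in mRNA, footprints and TE. The block kept the number of members called in the other 11 comparisons. The labels do not say that a number marks a shared batch, and samples were not treated as pairs. The correlation of the deviations of same-numbered pools was 0.053 in DRG mRNA, 0.189 in DRG footprints, 0 in spinal cord mRNA and -0.033 in spinal cord footprints. In DRG footprints replicate 1 lay above replicate 2 in both groups for Nefl, Nefh and Prph. The cause of these differences was not tested. Levels per kilobase depend on the length chosen, most for footprints over exonic length and for Nefm.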
